A study of Mus musculus with 8 samples.

Results

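GABA synthesis, packaging, reuptake and breakdown were followed through 5 genes in ribosome-associated RNA of cortical synaptosomes from control mice and *Erbb4* conditional mutants. These are *Gad1*, *Gad2*, *Slc32a1*, *Slc6a11* and *Abat*, taken by symbol out of 56576 genes measured, and all 5 passed the filter on low values. The 4 control libraries came from Lhx6-Cre;ErbB4+/+;Rpl22HA/HA mice and the 4 mutant libraries from Lhx6-Cre;ErbB4F/F;Rpl22HA/HA mice, all at postnatal day 15. Both genotypes therefore carry the Lhx6-Cre transgene, which acts in early postmitotic PV+ and SST+ interneurons from the medial ganglionic eminence (MGE) and preoptic area. Both are also homozygous for the Rpl22HA allele, which puts a hemagglutinin tag on a ribosomal protein where Cre is active. Only the floxed *Erbb4* alleles differ by design. Synaptosomes are pinched-off synapses prepared from cortical homogenate, and tagged ribosomes were pulled from them with anti-HA beads. The titles number the controls 1, 3, 4 and 5 and the mutants 2, 3, 4 and 5, and the study's methods describe biological replicates as samples from different brains.

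GABA, the main inhibitory transmitter of the cortex, is made from glutamate by the glutamate decarboxylases GAD67 (*Gad1*) and GAD65 (*Gad2*), which need the cofactor pyridoxal phosphate. VGAT (*Slc32a1*) loads it into synaptic vesicles. After release it is cleared by plasma membrane transporters, among them GAT-3 (*Slc6a11*), which sits mainly on astrocytes, and is broken down in mitochondria by GABA transaminase (*Abat*), an enzyme of both neurons and glia. *Gad1*, *Gad2* and *Slc32a1* thus mark inhibitory neurons, while *Slc6a11* and *Abat* are not restricted to them.

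*Gad1*, *Gad2* and *Slc32a1* lie apart from each other on chromosome 2 of mm10, at 70562129 to 70602012, 22622318 to 22693877 and 158610758 to 158615764. *Slc6a11* lies on chromosome 6 from 114131237 to 114249947, and *Abat* on chromosome 16 from 8513429 to 8621565. The RefSeq table of promoters (build GRCm38.p6) holds 4 of the 5 genes. The 250 bases before the annotated start are shown for the genes of GABA synthesis and packaging, whose levels correlated across libraries, and for *Slc6a11*, which had an r near 0 with them. Capitals mark TATAAA or GGGCGG on either strand.
Gad1 promoter, chr2:70561879-70562128, plus strand: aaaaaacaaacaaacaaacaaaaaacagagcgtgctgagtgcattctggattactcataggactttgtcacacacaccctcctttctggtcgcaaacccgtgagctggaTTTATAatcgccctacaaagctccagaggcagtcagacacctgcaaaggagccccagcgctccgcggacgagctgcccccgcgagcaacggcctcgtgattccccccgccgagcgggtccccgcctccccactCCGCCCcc
Gad2 promoter, chr2:22622077-22622326, plus strand: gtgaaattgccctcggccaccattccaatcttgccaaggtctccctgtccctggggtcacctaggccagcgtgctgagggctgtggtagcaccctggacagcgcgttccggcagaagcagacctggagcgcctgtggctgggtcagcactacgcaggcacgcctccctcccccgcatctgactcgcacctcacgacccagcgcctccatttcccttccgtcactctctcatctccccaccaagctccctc
Slc32a1 promoter, chr2:158610508-158610757, plus strand: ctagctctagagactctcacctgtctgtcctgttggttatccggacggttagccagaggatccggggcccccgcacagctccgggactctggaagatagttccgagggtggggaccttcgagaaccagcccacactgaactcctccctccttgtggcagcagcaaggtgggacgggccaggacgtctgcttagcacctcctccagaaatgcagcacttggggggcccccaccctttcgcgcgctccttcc
Slc6a11 promoter, chr6:114130991-114131240, plus strand: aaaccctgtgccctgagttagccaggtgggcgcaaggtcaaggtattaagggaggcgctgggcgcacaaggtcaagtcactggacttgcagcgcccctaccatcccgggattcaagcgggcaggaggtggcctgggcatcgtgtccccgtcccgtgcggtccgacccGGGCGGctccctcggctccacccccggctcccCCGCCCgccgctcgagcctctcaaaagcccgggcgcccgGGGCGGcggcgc
TATAAA was found once in the *Gad1* window and in none of the other 3, against 12.4% of the 32851 promoter windows of this length. GGGCGG was found once for *Gad1*, 3 times for *Slc6a11* and not for *Gad2* or *Slc32a1*, against 32.7% of all windows. TAATTA, a core recognised by homeodomain proteins, was in none of the 4 windows, against 4.84% of all. None of the 3 motifs overlapped another here. The windows held 17, 13, 12 and 25 CG dinucleotides in the order printed, where the median of all windows is 6. These matches describe the letters of the windows and no binding was measured.

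The values are normalized counts, that is reads on a gene's constitutive regions divided by 1 size factor per library. Controls had 51010687 to 80226984 reads on genes and mutants 58967504 to 74609576, and the 5 genes had between 462 and 39598 reads each per library, so the spread between libraries exceeded counting error. *Erbb4*, the targeted gene, had 1640.1 normalized counts in the library labelled control replicate 1, below the 1711 and 1648 of mutant replicates 2 and 3, while the other controls had 3034 to 5377. Its log2 fold change was -1.25 (standard error 0.34). That library also had the highest summed level of 9 oligodendrocyte markers, so the fold changes of the 5 genes are given below with and without it. The study describes separate sequencing batches, which the labels do not assign to libraries, so batch was not fitted. A fit with replicate number as a covariate changed the call on *Slc32a1*, as given below. Fold changes are on the log2(normalized count + 1) scale, mutant minus control, from limma over 31171 genes. Calling a gene took an unadjusted p no higher than 0.05 together with a 1.5-fold difference or more. Of the genes tested 7.15% met both, 3.17% as lower and 3.98% as higher in mutants.

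*Gad1* and *Gad2* were lower in *Erbb4* conditional mutants, with log2 fold changes of -1.04 and -0.93, and both just passed these thresholds. Both also passed them by the count tests edgeR and DESeq2 (unadjusted DESeq2 p of 0.017 and 0.025, adjusted 0.35 and 0.38). *Slc32a1* had the lowest limma fold change of the 5 but varied more and was not called. By edgeR and DESeq2 *Gad1* was lowest, at -1.08 and -1.09, against -1.03 and -1.03 for *Slc32a1*. *Abat* and *Slc6a11* were not called, with log2 fold changes of -0.27 (standard error 0.24) and 0.21 (standard error 0.45). Thus 2 of the 5 genes were called lower and 0 higher, and 4 of the 5 had a log2 fold change below 0, against 46.6% of the genes tested. None passed adjustment over all genes, where 14 genes, or 0.0449%, had an adjusted p under 0.05 from limma, 10 from edgeR and 68 from DESeq2, and 2596 genes, or 8.33%, had an unadjusted limma p under 0.05. The 4 values of each genotype overlapped for all 5 genes, while 4.93% of the genes tested did not overlap, 2.17% with the mutants lower. In bulk pulldowns, fewer synapses of a cell type and less RNA per synapse cannot be told apart.

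**Figure D1:**
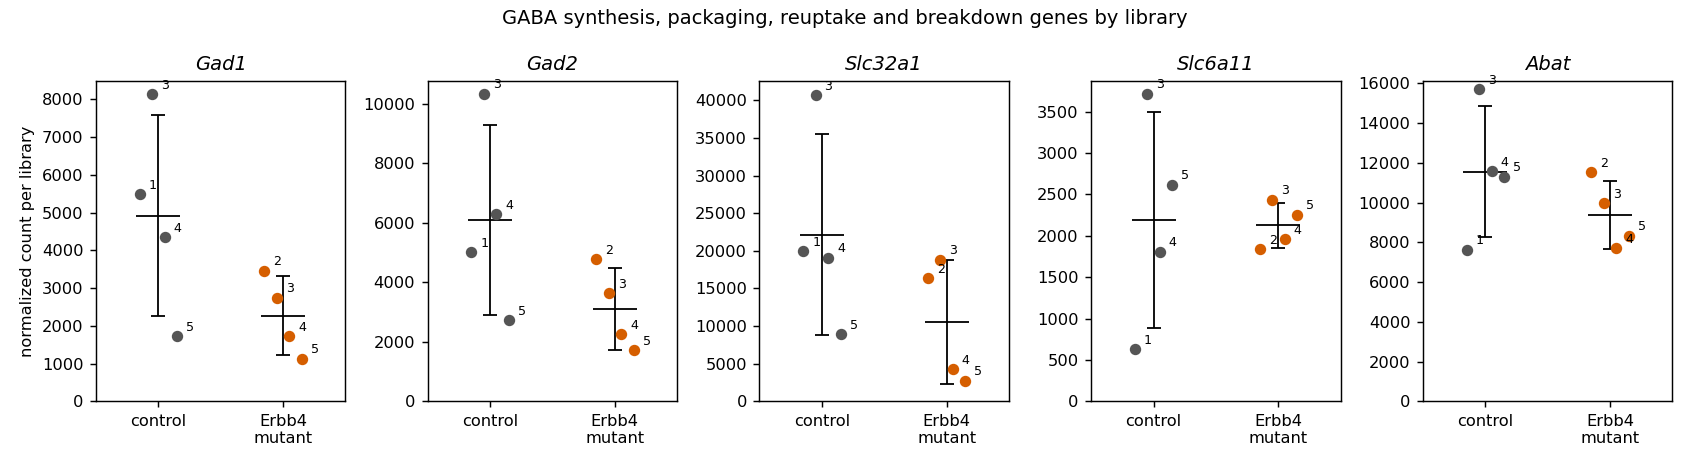
Normalized count (linear axis from 0) of the 5 genes in each library, controls in grey and *Erbb4* conditional mutants in orange, with replicate numbers beside the points. Horizontal bars are the mean and error bars the SD (n = 4 each). Control replicate 5 sits among the mutants for *Gad1*, *Gad2* and *Slc32a1*, and the library labelled control replicate 1 lies lowest for *Slc6a11*.

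*Gad1* encodes GAD67, the decarboxylase thought to supply most of the basal GABA of interneurons. It had 5482, 8135, 4342 and 1720.4 normalized counts in control replicates 1, 3, 4 and 5, and 3465, 2751, 1719.4 and 1130.2 in mutant replicates 2, 3, 4 and 5. Control replicate 5 was level with mutant replicate 4, and the other 3 controls lay above every mutant. The means were 4919.7 ± 2659.7 in controls against 2266 ± 1043 in mutants (SD, n = 4 each). The log2 fold change was -1.04 (standard error 0.47, 95% interval -2.08 to -0.01), with an unadjusted p of 0.049 and an adjusted p of 0.58 from limma. Without the library labelled control replicate 1 it was -0.92, with an unadjusted limma p of 0.11. The call was also lost without control replicate 3 or 4 or mutant replicate 4 or 5, with log2 fold changes of -0.73, -1.03, -0.95 and -0.75. The antisense gene *Gad1os*, which overlaps the first bases of the *Gad1* locus, had at most 13.3 normalized counts in any library, no more than 0.775% of the *Gad1* value there.

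*Gad2* encodes GAD65, the membrane-anchored decarboxylase of axon terminals, tied to vesicle filling during activity. Its 4 controls had 5010.1, 10326, 6276 and 2718 normalized counts (replicates 1, 3, 4 and 5) and its mutants 4767, 3636, 2263 and 1718 (replicates 2, 3, 4 and 5). As for *Gad1*, control replicate 3 was highest, control replicate 5 lay among the mutants and mutant replicate 5 was lowest of all. The means were 6083 ± 3189 (SD, n = 4) and 3096 ± 1376 (SD, n = 4). The log2 fold change was -0.93 (standard error 0.41, 95% interval -1.84 to -0.01), with an unadjusted p of 0.047 and an adjusted p of 0.58 from limma. It was -0.97 without the library labelled control replicate 1, with an unadjusted limma p of 0.066, and -0.62, -0.86, -0.81 and -0.68 without control replicates 3 and 4 and mutant replicates 4 and 5, none of them called.

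*Slc32a1* encodes VGAT, which fills vesicles with GABA or glycine. It had 19986, 40646, 19092 and 8966 normalized counts in control replicates 1, 3, 4 and 5, and 16362, 18817, 4281 and 2762 in mutant replicates 2, 3, 4 and 5. Mutant replicates 2 and 3 were close to controls 1 and 4, while mutant replicates 4 and 5 lay below every control. The means were 22172 ± 13291 (SD, n = 4) and 10555 ± 8207 (SD, n = 4), so the SD of the mutants was 77.8% of their mean. The log2 fold change was -1.31 (standard error 0.63, 95% interval -2.71 to 0.08, unadjusted limma p of 0.062, adjusted 0.58), and it did not meet the thresholds. It was -1.30 without the library labelled control replicate 1. With edgeR and DESeq2 it was -1.03 and -1.03 (unadjusted edgeR p of 0.13 and DESeq2 p of 0.071), also not called. *Slc32a1* met the thresholds without control replicate 5 (-1.68), mutant replicate 2 (-1.67) or mutant replicate 3 (-1.74). It also met them with limma's array weights, which let libraries count unequally (-1.79, unadjusted limma p of 0.0086, adjusted 0.25). With replicate number as a covariate it was called too (-1.66, unadjusted limma p of 0.00034, adjusted 0.10), though the numbers were not taken to pair libraries. An unnamed gene of the table, on chromosome 2 from 158614031 to 158615729, lies wholly within exon 2 of *Slc32a1* (158613817 to 158615748 in GENCODE). Its values were 40.8% to 48.2% of those of *Slc32a1* in every library. Unlike *Slc32a1*, this unnamed gene just met the thresholds, with a log2 fold change of -1.40 (unadjusted limma p of 0.048). The library kit does not mark strand, so the same reads may have been counted for both genes.

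*Slc6a11* encodes GAT-3, the GABA transporter of astrocyte processes. Controls had 629.8, 3714, 1807 and 2617 normalized counts (replicates 1, 3, 4 and 5) and mutants 1841, 2437, 1961 and 2256 (replicates 2, 3, 4 and 5). All mutants lay within the range of the controls, whose SD was 59.4% of the mean against 12.8% in mutants. The means were 2192 ± 1302 (SD, n = 4) and 2124 ± 272 (SD, n = 4). The log2 fold change was 0.21 (standard error 0.45, 95% interval -0.77 to 1.20, unadjusted limma p of 0.65), which leaned on the library labelled control replicate 1. Without it the value was -0.30, and in the count tests it was -0.03.

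*Abat* encodes GABA transaminase, the first step of GABA breakdown. Its values were 7643, 15715, 11591 and 11302 normalized counts in control replicates 1, 3, 4 and 5, and 11538, 9965, 7706 and 8345 in mutant replicates 2, 3, 4 and 5. The library labelled control replicate 1 was the lowest of the 8, and mutant replicate 2 was level with controls 4 and 5. The means were 11563 ± 3300.4 (SD, n = 4) and 9389 ± 1719.6 (SD, n = 4), and the log2 fold change was -0.27 (standard error 0.24, 95% interval -0.81 to 0.26, unadjusted limma p of 0.29). Without that library it was -0.46 and with array weights -0.46, also not called. With replicate number as a covariate it was -0.56 (unadjusted limma p of 0.0040, adjusted 0.14), which was under 1.5-fold.

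To compare levels between genes, values were divided by the length of each gene's longest coding GENCODE transcript. On this scale *Slc32a1* was highest in controls, at 7927 ± 4752 (SD, n = 4) normalized counts per kilobase. *Abat* had 2494 ± 712, *Gad1* 1466 ± 793, *Gad2* 1059 ± 555 and *Slc6a11* 530.4 ± 315 normalized counts per kilobase in controls (SD, n = 4). The ranges of *Abat*, *Gad1* and *Gad2* overlapped, as did those of *Gad1*, *Gad2* and *Slc6a11*, and that of *Slc32a1*, from 3205 to 14532, overlapped only that of *Abat*, which reached 3389.8. Within every control library the order was *Slc32a1*, *Abat*, *Gad1* and *Gad2*, though *Abat* and *Gad1* were close in control replicate 1 (1649 against 1634). *Gad1* and *Gad2* exceeded *Slc6a11* in every control except replicate 5. In mutants *Slc32a1* had 3774 ± 2934 and *Abat* 2025 ± 371 normalized counts per kilobase (SD, n = 4), and mutant replicates 4 and 5 had less *Slc32a1* than *Abat* on this scale. The lengths are those of whole transcripts and not of the regions counted, so this order is approximate.

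Ratios within a library do not depend on its size factor, apart from the pseudocount, and 5 of them were tested with exact two-sided permutation tests over the 8 libraries, where the smallest p is 0.029. None passed, and every p adjusted over the 5 ratios by the Benjamini-Hochberg method was at least 0.93. The log2 ratio of *Gad1* to *Gad2* was -0.35 ± 0.35 in controls against -0.47 ± 0.10 in mutants (SD, n = 4 each), differing by -0.11 (standard error 0.18, exact permutation p = 0.71). The library labelled control replicate 1 stood highest, at 0.13, and the other 7 lay between -0.66 and -0.34. Without it the difference was 0.05.

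The log2 ratio of *Slc32a1* to the mean of *Gad1* and *Gad2* was 1.87 to 2.15 in the 4 controls. It was 2.01 and 2.57 in mutant replicates 2 and 3 but 1.12 and 0.99 in mutant replicates 4 and 5. The mutants thus lay on both sides of the controls, and the difference of -0.33 (standard error 0.38) gave an exact permutation p of 0.37. For *Abat* over the mean of *Gad1* and *Gad2* the log2 ratio was 1.21 ± 0.82 in controls against 1.93 ± 0.48 in mutants (SD, n = 4 each), differing by 0.71 (standard error 0.47, exact permutation p = 0.20). Control replicate 5, at 2.39, exceeded 3 of the mutants, and the other controls were at or below 1.15. Without control replicate 5 the difference was 1.10 (exact permutation p = 0.029, the smallest 7 libraries can give), and without the library labelled control replicate 1 it was 0.49 (exact permutation p = 0.40).

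**Figure D2:**
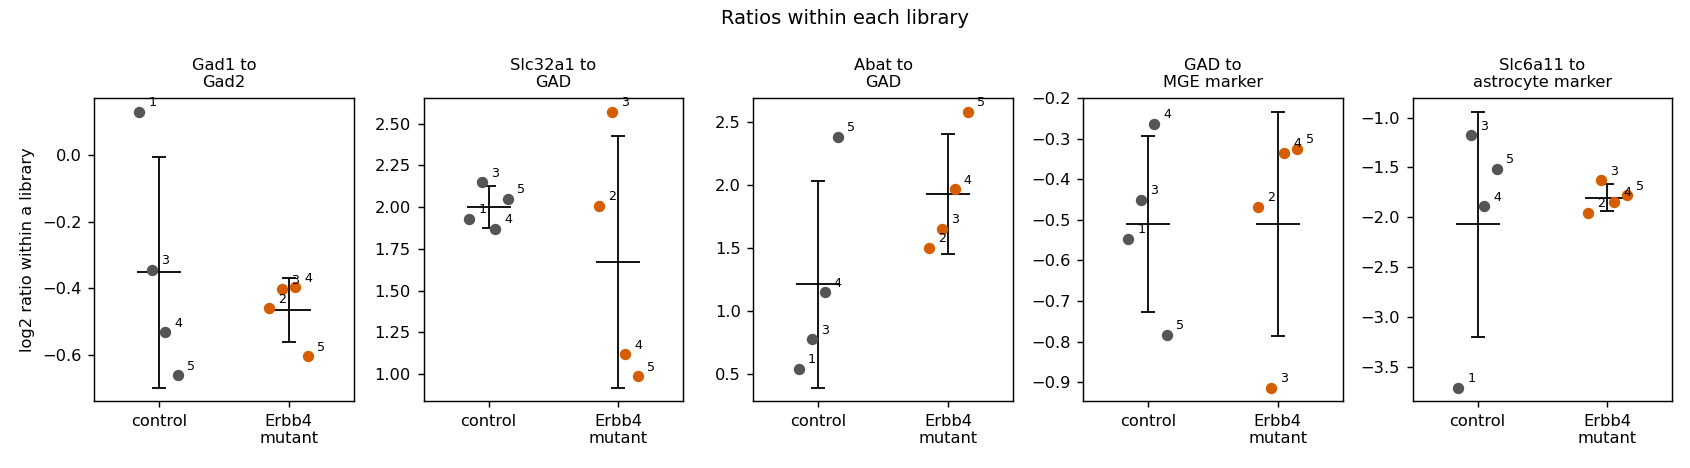
Log2 ratios (differences of log2(normalized count + 1) values) within each library, with points by replicate number and bars for the mean and SD (n = 4 each). The ratio of GAD to MGE markers has nearly the same mean in both genotypes, and the mutants split on the ratio of *Slc32a1* to GAD.

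*Gad1*, *Gad2* and *Slc32a1* correlated with other markers of the tagged cells. The mean log2 level of 10 MGE interneuron markers (among them *Lhx6*, *Sst*, *Pvalb* and *Nxph1*) ran from 11.9 to 13.6 in controls and from 10.8 to 12.5 in mutants. All 10 had a log2 fold change below 0, against 46.6% of the genes tested, with a median of -1.03. Of these markers 3 were called lower (*Pvalb*, *Kcnc1* and *Syt2*), against 3.17% of the genes tested. The log2 ratio of GAD to these markers was -0.51 ± 0.22 in controls against -0.51 ± 0.28 in mutants (SD, n = 4 each), differing by 0.00043 with a standard error of 0.18 (exact permutation p = 1). With the marker mean as a covariate, the log2 fold changes became -0.06 for *Gad1*, -0.09 for *Gad2* and 0.10 for *Slc32a1*, none of them called. The markers themselves differ between genotypes, so this covariate takes away part of any genotype difference.

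Across the 8 libraries *Slc32a1* followed the MGE marker mean most closely of the 5 genes. Pearson's r was 0.99 (exact permutation p = 2.48e-05, the smallest the 40320 pairings can give, adjusted 0.000248 over 10 relations) and Spearman's rho 1 (exact permutation p = 4.96e-05, adjusted 0.000496). For *Gad1* r was 0.96 (exact permutation p = 0.000174, adjusted 0.000868) and rho 0.98 (exact permutation p = 0.000397, adjusted 0.0020). For *Gad2* r was 0.96 (exact permutation p = 0.000273, adjusted 0.000909) and rho 0.95 (exact permutation p = 0.0011, adjusted 0.0038). Without mutant replicates 4 and 5, the libraries farthest from the median of the marker mean, r was 0.98, 0.96 and 0.92 for *Slc32a1*, *Gad1* and *Gad2* over 6 libraries. For *Abat* r was 0.63 (exact permutation p = 0.097, adjusted 0.24), rho 0.40 (exact permutation p = 0.33, adjusted 0.60) and r 0.34 without those libraries. For *Slc6a11* r was -0.05 (exact permutation p = 0.90, adjusted 0.90), rho -0.07 (exact permutation p = 0.88, adjusted 0.88) and r 0.05 without them. The points share genotype as well as library composition, and 4 libraries per genotype are too few for values within a genotype.

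**Figure D3:**
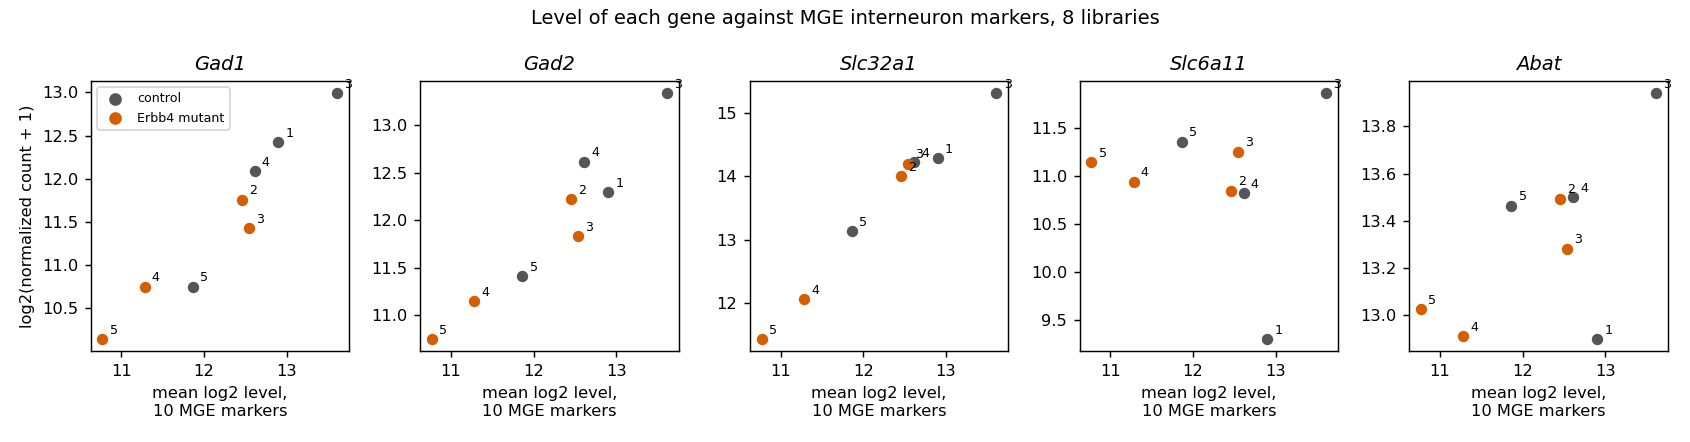
Log2(normalized count + 1) of each gene against the mean log2 level of 10 MGE interneuron markers, 1 point per library (controls grey, *Erbb4* conditional mutants orange, replicate numbers beside the points). *Gad1*, *Gad2* and *Slc32a1* rise with the markers along 1 line for both genotypes, with control replicate 5 between the mutants, and *Slc6a11* shows no such order.

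For *Slc6a11* a relation with the astrocyte markers was not detected either. Its r with the mean log2 level of 10 astrocyte markers was -0.07 (exact permutation p = 0.89, adjusted 0.90), rho was 0.38 (exact permutation p = 0.36, adjusted 0.60), and r was -0.65 without control replicates 3 and 4. The other 4 genes had r between 0.08 and 0.34 with the astrocyte mean, with adjusted p from exact permutation of at least 0.80. The r values without control replicates 3 and 4 were 0.36 for *Gad1*, 0.21 for *Gad2*, 0.24 for *Slc32a1* and -0.40 for *Abat*, and rho over all 8 libraries ran from -0.10 for *Abat* to 0.38 for *Slc32a1*, with adjusted p from exact permutation of at least 0.60. The log2 ratio of *Slc6a11* to the astrocyte markers was -2.07 ± 1.13 in controls against -1.80 ± 0.14 in mutants (SD, n = 4 each), differing by 0.27 (standard error 0.57, exact permutation p = 0.91). The library labelled control replicate 1, at -3.71, set the spread of the controls, and the difference was -0.28 without it.

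Markers of other cells were present in every library, and none of the markers listed was at 0. The 9 excitatory neuron markers summed to 114837 to 153127 normalized counts in controls and 110524 to 137236 in mutants, with a median log2 fold change of -0.15 (1 called lower, 1 higher). For this and the lists below, the shares over all genes tested were 3.17% called lower and 3.98% called higher. *Slc17a7*, the vesicular glutamate transporter of cortical excitatory neurons, had 37433 ± 5152 normalized counts per kilobase in controls (SD, n = 4), above *Slc32a1* in every library. The median was -0.60 for 9 markers of interneurons from the caudal ganglionic eminence (0 called), which express the same GABA genes, and -0.05 for 10 astrocyte markers (0 called). It was -0.61 for 9 oligodendrocyte markers (3 called lower), -0.42 for 9 microglia markers (0 called), 0.59 for 9 endothelial and mural markers (4 called higher) and 0.11 for 5 markers of leptomeningeal fibroblasts (0 called). The part of these cells in the values of the 5 genes was not tested.

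Other genes of the pathway were tested in the same fit. Of 29 related genes, all of them tested, 1 was called lower and none higher. Of all genes tested, 3.17% were called lower and 3.98% higher, and a count of 1 does not separate the list from these shares. The median log2 fold change of the 29 was -0.16, against 0.06 over all genes. In 1 of the 29, *Pdxp*, the genotypes did not overlap, with the mutants lower. Among all genes tested 4.93% did not overlap, 2.17% with the mutants lower. No gene of the list had an adjusted p under 0.05 from limma. None of the 29 was called without control replicate 1 or 3 or mutant replicate 4 or 5, fits that called 1514, 1729, 1194 and 1229 genes in all. Without control replicate 5, 6 of the 29 and 3767 genes in all were called, against 2229 with all 8 libraries.

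Glutamate for GABA synthesis comes from glutamine, which enters neurons through SNAT transporters, or by direct uptake. The 1 gene called was *Gls2*, a mitochondrial glutaminase, which fell from 736 ± 192 (SD, n = 4) to 463 ± 116 normalized counts (SD, n = 4), or by 0.66 on the log2 scale (standard error 0.29). The glutamine transporter gene *Slc38a2* was at 0.14 on that scale (standard error 0.28). *Slc38a1*, the SNAT1 transporter, had 27239, 44956, 23555 and 13881 normalized counts in control replicates 1, 3, 4 and 5, and 20626, 24566, 7219 and 5397 in mutant replicates 2, 3, 4 and 5. This is the order of *Slc32a1* in every library but 1 neighbouring pair, and its log2 fold change was -1.09 (standard error 0.51, unadjusted limma p of 0.056). The neuronal glutamate transporter gene *Slc1a1* was at -0.61 (standard error 0.36) and *Slc38a5* at -0.63 (standard error 0.48). The glial genes *Glul* (glutamine synthetase), *Slc1a2* and *Slc1a3* (glutamate uptake) and *Slc38a3* were at -0.01, -0.11, -0.11 and 0.03, and *Glud1* (glutamate dehydrogenase) at -0.10. *Slc1a2* and *Slc1a3* are also among the 10 astrocyte markers.

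Pyridoxal phosphate, the cofactor of both decarboxylases and of GABA transaminase, depends on the kinase *Pdxk* and is removed by the phosphatase *Pdxp*. Neither was called. Their log2 fold changes were -0.35 for *Pdxp* (standard error 0.18) and 0.32 for *Pdxk* (standard error 0.34). The 4 Dlx homeodomain factors of inhibitory neurons, 0 of them called, had values of -0.61 for *Dlx1*, -0.84 for *Dlx2*, -1.05 for *Dlx5* and -0.16 for *Dlx6*. Control replicate 3 stood apart from the other controls for *Dlx1*, and the library labelled control replicate 1 for *Slc6a12*. Of 6 further genes of GABA transport and breakdown 0 were called. *Slc6a12* and *Slc6a13*, transporters found largely outside neurons, had -1.08 (standard error 0.64) and -0.21 (standard error 0.20). Mutant replicate 3 had 32.3 normalized counts of *Slc6a12*, against 204.3 to 272.7 in the other mutants. The count tests gave *Slc6a12* -0.79 with edgeR and -0.81 with DESeq2. *Aldh5a1*, which takes up the product of GABA transaminase, was at -0.16, and *Aldh9a1*, *Akr7a5* and *Adhfe1* at 0.05, -0.05 and -0.35. Among 5 vesicular transporters of other transmitters 0 were called, with log2 fold changes of -0.15 for *Slc17a7*, -0.30 for *Slc17a6*, 0.20 for *Slc17a8*, 0.15 for *Slc18a2* and -1.09 for *Slc18a3*, the last with a standard error of 0.66.

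**Figure D4:**
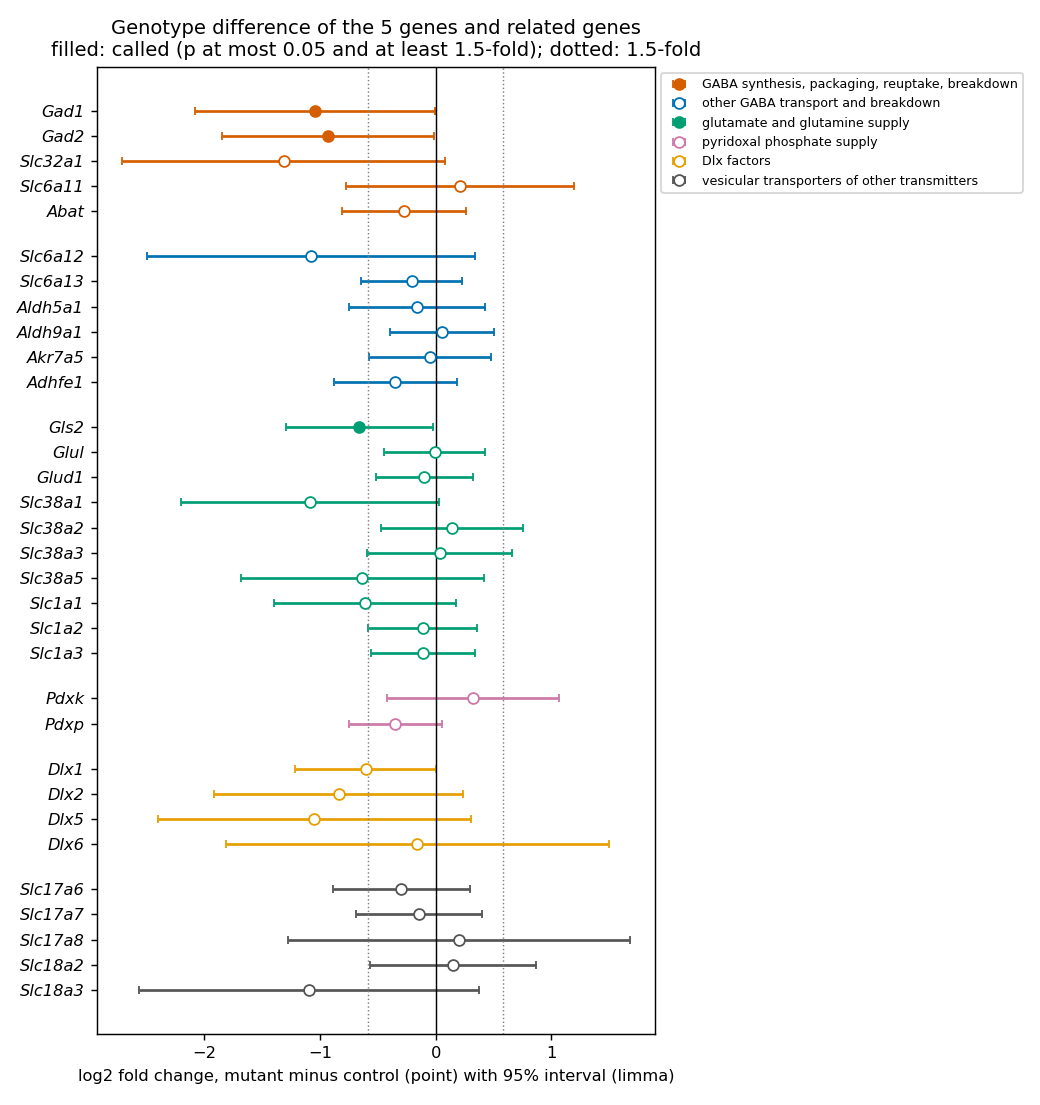
Log2 fold change (mutant minus control, limma) with 95% interval for the 5 genes and the related genes named in the text, coloured by group, filled where called. Solid and dotted vertical lines mark no change and 1.5-fold. *Gad1*, *Gad2* and *Gls2* are the filled points, and the interval of *Slc32a1* crosses 0.

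As a description across the 8 libraries, the genes most like each of the 5 in log2 level were sought among 12666 named genes with a mean of at least 100 normalized counts in each genotype. For *Slc32a1* they were *Slc38a1* (Pearson's r of 0.998), *Alg2* (0.996) and *Nceh1* (0.996). For *Gad1* they were *Sec61a2*, *Cplx1* (a complexin of fast release) and *Oprl1*, each with r of 0.99. For *Gad2* they were *Atp6v1a*, a subunit of the proton pump that acidifies vesicles (r of 0.99), and *Abcg4* (0.99). For *Abat* they were *Hyou1* (0.98), *Insig1* (0.98) and *Htr5a* (0.96), and for *Slc6a11* *Ctif* (0.98), *Slc35e1* (0.97) and *Adam19* (0.96). Among each other *Gad1* and *Gad2* had r of 0.97, *Gad1* and *Slc32a1* 0.93 and *Gad2* and *Slc32a1* 0.94, while *Slc6a11* had r between -0.17 and 0.02 with these 3 genes. Of the 29 related genes, 6 reached r of 0.9 with *Slc32a1* (among them *Slc38a1*, *Slc1a1*, *Slc38a5*, *Pdxp* and *Dlx5*), against 4.65% of 18120 genes of that abundance, a limit chosen after the values were seen.

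**Figure D5:**
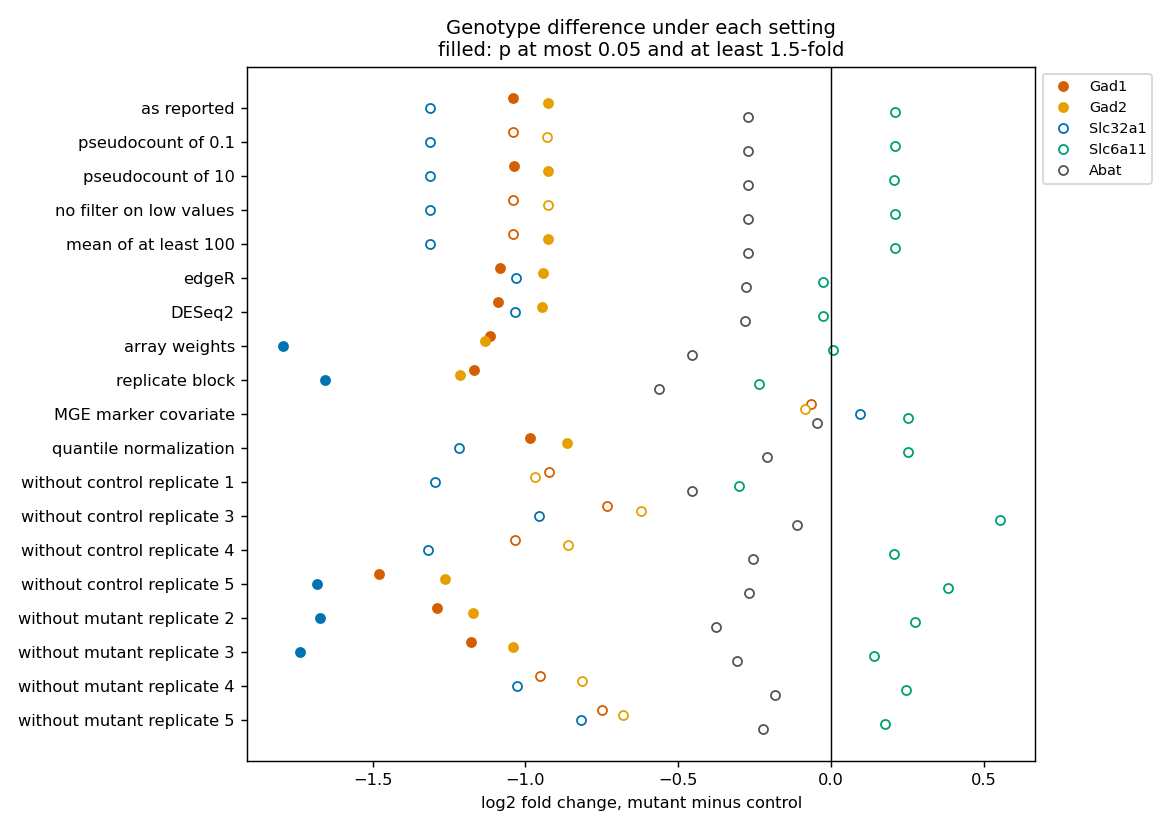
Log2 fold change of each of the 5 genes under each setting and with each library left out in turn, filled where the gene was called. *Gad1* and *Gad2* stay below 0 in all settings shown, from -1.48 to -0.06 and from -1.26 to -0.09, and *Slc32a1* lies above 0 only with the MGE marker covariate.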

How the data were processed

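RNA on HA-tagged ribosomes was sequenced from cortical synaptosomes of 4 control and 4 *Erbb4* conditional mutant samples, grouped by title. The authors aligned reads to mm10 with STAR 2.4.0, counted those on constitutive regions of each Mouse Fast DB gene and deposited a signal per library, the count divided by its DESeq2 size factor, without an expression filter. Dividing by the smallest value above 0 gave whole reads for 100% of values (within 0.01).

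The filter kept 31171 genes whose mean reached 10 in either genotype. Their log2(normalized count + 1) values entered limma 3.58.1 (R 4.3.3; eBayes with trend, no covariate), and p-values were adjusted over all of them by the Benjamini-Hochberg method. On simulated counts for 29857 genes with these means and depths, 90% of 200 genes changed 3-fold were called in the right direction, and 4.67% of unchanged genes were called. The changed genes all had a mean of at least 100, and smaller changes were not simulated. Noise was drawn independently for each gene and library, so these rates need not hold for the 5 genes. Alternatives were other pseudocounts, filters, library weights, quantile normalization, the MGE marker mean or replicate number as a covariate, an adjusted p threshold, edgeR 4.0.16 and DESeq2 1.42.0 on the recovered reads, and leaving out each library. The 5 genes, the related genes, the marker lists and the 3 most alike genes each were named by rules, and some genes of these lists, though counted, are not reported here. The genes and lists were chosen with earlier results of these data known, and the related genes are not every gene of the pathway. Promoters came from RefSeq (GRCm38.p6) and transcript lengths and exons from GENCODE. Sequencing batch is not assigned by the labels and could not be fitted.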

Additional observations from a re-analysis of the deposited data

Results flagged for a closer look

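Among 80 groups of 4 libraries looked at (the 5 genes, *Erbb4*, the 29 related genes and the 5 ratios in each genotype), 2 held a library far from the rest, and chance alone would flag about 1 group in 20, or 4. *Slc6a12* had 556.2 normalized counts in the library labelled control replicate 1, against 237.5 to 250.5 in the other controls. *Dlx1* had 1226 normalized counts in control replicate 3, against 627.1 to 723.9 in the other controls.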

How the results depend on the processing

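The cause of the changes below was not tested. As reported, 2229 genes were called, 1 of them among the 29 related genes. The log2 fold changes were -1.04 for *Gad1* and -0.93 for *Gad2*, both called. Both stayed called with edgeR, DESeq2 and array weights, the last at -1.12 and -1.13 (unadjusted limma p of 0.021 and 0.010). They were not called with a pseudocount of 0.1 (-1.04 and -0.93, unadjusted limma p of 0.055 and 0.053) or with no filter on low values (-1.04 and -0.93, 0.053 and 0.051). *Gad1* was also not called with a mean of at least 100 (-1.04, unadjusted limma p of 0.0501). With the MGE marker covariate the values were -0.064 for *Gad1*, -0.086 for *Gad2* and 0.10 for *Slc32a1*, with 0 related genes called. *Slc32a1* was called with array weights (-1.79), which gave 3630 called genes and 6 related ones. *Slc6a11* was at -0.026 with edgeR and with DESeq2. Related genes called were 2 with either pseudocount, without the filter, with a mean of at least 100 and with either count test. At an adjusted p under 0.05 from limma, 14 genes and 0 related ones were called. The difference in the ratio of GAD to MGE markers was -0.0015 with a pseudocount of 10.

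Leaving out each library in turn gave 1194 to 3767 called genes, without mutant replicate 4 and control replicate 5 respectively, and 1229 without mutant replicate 5. It gave 0 to 6 related genes called, from 0 without control replicate 1 or 3 or mutant replicate 4 or 5 to 6 without control replicate 5. The log2 fold changes ran from -1.48 to -0.73 for *Gad1*, -1.26 to -0.62 for *Gad2*, -1.74 to -0.82 for *Slc32a1*, -0.30 to 0.55 for *Slc6a11* and -0.46 to -0.11 for *Abat*. The differences in log2 ratio ran from -0.22 to 0.046 (*Gad1* to *Gad2*), -0.63 to -0.10 (*Slc32a1* to GAD), 0.49 to 1.10 (*Abat* to GAD), -0.090 to 0.13 (GAD to MGE markers) and -0.28 to 0.57 (*Slc6a11* to astrocyte markers). Only the ratio of *Abat* to GAD passed in any of these fits, without control replicate 5 (1.10, exact permutation p = 0.029).

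Replicate numbers 3, 4 and 5 occur in both genotypes. Same-numbered libraries deviated from their genotype means with correlations of 0.10, 0.10 and 0.08, not every one over 0.1, so the numbers were not taken to pair them. The deviations did share structure across genotypes. Controls 1 and 3 correlated positively with mutants 2 and 3 (0.02 to 0.10) and negatively with mutants 4 and 5 (-0.12 to -0.03), and controls 4 and 5 did the reverse (0.08 to 0.10 and -0.08 to -0.06). Deviations sum to 0 within a genotype, so these signs are not independent. Each of the libraries numbered 3, 4 and 5 correlated best with its own number except control replicate 5, which correlated best with mutant replicate 4. The replicate block called 3164 genes in all and 7 related ones. Control replicate 1 and mutant replicate 2 have no partner and do not inform that difference. *Slc32a1* was called at -1.66 (unadjusted limma p of 0.00034, adjusted 0.10), *Slc6a11* was at -0.23, and *Abat* was at -0.56 (unadjusted limma p of 0.0040, adjusted 0.14) but under 1.5-fold. *Gad1* and *Gad2* stayed called, at -1.17 and -1.21 (unadjusted limma p of 0.0020 and 0.0014, adjusted 0.12 and 0.12). The replicate block changed no other call on the 5 genes.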
